A study of Mus musculus with 6 samples.

Results

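The 8 genes described here encode the parts of Kv4 channel complexes. They are the pore-forming subunits Kcnd2 (Kv4.2) and Kcnd3 (Kv4.3), the 4 KChIP genes Kcnip1 to Kcnip4, and the dipeptidyl peptidase-like genes Dpp6 and Dpp10. They were chosen by name, and all 8 were found among the 32285 genes of the count tables. The libraries hold single nuclei of the prelimbic part (PL) of the medial prefrontal cortex (mPFC) of male C57BL/6 mice.

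Run mice were raised by dams that had a running wheel in the cage after birth, and Sed mice by sedentary dams. After weaning, the males lived in groups (GH) or in social isolation (SI). Cohort 1 gave a Run GH and a Sed GH library from mice that had been through tube tests and were chosen by their rank in them. The study names top and bottom rank for these Run and Sed males, so Run and Sed may also differ in rank. Cohort 2 gave both GH and both SI libraries from mice without behavioral testing. Each of the 6 libraries pools nuclei of 3 mice, so each condition has 1 library per cohort. The labels give P21 as the age, the day of weaning, whereas the study's methods place the collection of tissue in adulthood.

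Kv4 channels carry the fast, inactivating potassium current known as A-type current in the cell body and dendrites of neurons, where it delays firing and dampens signals that travel back into dendrites. KChIPs are calcium-binding proteins of the neuronal calcium sensor family that attach to the inner end of the Kv4 subunit and change its surface level and its inactivation. DPP6 and DPP10 are membrane proteins that resemble peptidases but have lost that activity, and they speed up gating of the channel. Native channels are thought to hold all 3 kinds of subunit.

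Total UMIs (unique molecular identifiers, each a captured RNA molecule) per library ran from 19134955 in Sed GH of cohort 2 to 188952936 in Sed GH of cohort 1, and 4997 to 9936 nuclei per library passed the filters. Median UMIs per nucleus ran from 1637 in Sed GH of cohort 2 to 6250 in Sed GH of cohort 1. Pairs of libraries shared at most 22 barcodes. Of 42595 nuclei, 40964 fell into 15 classes, each called X-like after markers, and the rest lay in clusters that could not be named, or not to a layer or subtype, or that were L6b-like in cohort 2 alone. Of the class markers, 68 of 76 were highest in their own class, although the L5-like class had only Deptor of its 4 markers highest there. The cohort 1 libraries held far more free RNA, that is RNA outside nuclei that enters every droplet. It made up an estimated 28.0% and 26.7% of pyramidal-like UMIs in Run GH and Sed GH of cohort 1 and 7.30% to 11.5% in cohort 2. This amount was set from the pyramidal markers found in astrocyte-like nuclei, so it cannot be checked in that class. The makeup of free RNA was read from barcodes under 100 UMIs. The median background barcode lay above that limit in every library but Sed GH of cohort 2, so free RNA levels of different libraries may stand for different kinds of barcode. Levels are in CPM, the UMIs of a gene divided by all UMIs of the class in that library and brought to the usual CPM scale. Nuclei of a library are not replicates, so all errors are over libraries. The files give no more than nuclear RNA, and fewer cells of a type within a summed class cannot be told apart from less RNA per cell.

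The genes differ greatly in size. In the GENCODE annotation of GRCm38 (mm10), Kcnip4 covers 1135.4 kb of the minus strand of chromosome 5 (48389502 to 49524907), Dpp6 910.3 kb of the plus strand of chromosome 5 (26817203 to 27727505), Dpp10 724.1 kb of the minus strand of chromosome 1 (123321471 to 124045559), and Kcnd2 514.3 kb of the plus strand of chromosome 6 (21215503 to 21729805). Kcnip1 covers 363.8 kb of chromosome 11 (33629339 to 33993152, minus), Kcnd3 221.7 kb of chromosome 3 (105452330 to 105674002, plus), Kcnip3 65.6 kb of chromosome 2 (127456498 to 127522094, minus), and Kcnip2 only 24.2 kb of chromosome 19 (45791839 to 45816061, minus). Because intron reads were counted, a long gene gives more UMIs, and levels of different genes are compared here per kb of gene. Ratios of UMIs between genes are used below only to follow them from class to class. Of the other genes counted, Gm43847 lies inside Kcnd3 and 4930469K13Rik overlaps the 5′ end of Kcnip1, each on the strand of the member. Reads there could be split between them.

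The promoter windows of 3 members are shown because the results turn on them: Kcnip1, which varied most between neuron classes, and Dpp6 and Dpp10, whose levels were spread in opposite ways. Each window holds 250 bases before and 50 after an annotated start, 5′ to 3′, from RefSeq (GRCm38.p6), with CG dinucleotides in capitals. For genes with several starts, the most upstream one is given.
Kcnip1, chr11:33993144-33993443, minus strand: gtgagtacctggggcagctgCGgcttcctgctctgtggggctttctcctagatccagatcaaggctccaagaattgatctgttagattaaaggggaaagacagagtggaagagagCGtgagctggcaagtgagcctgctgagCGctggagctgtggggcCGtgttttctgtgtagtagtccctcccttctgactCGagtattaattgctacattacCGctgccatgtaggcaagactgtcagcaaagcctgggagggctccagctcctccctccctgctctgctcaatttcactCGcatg
Dpp6, chr5:26817107-26817406, plus strand: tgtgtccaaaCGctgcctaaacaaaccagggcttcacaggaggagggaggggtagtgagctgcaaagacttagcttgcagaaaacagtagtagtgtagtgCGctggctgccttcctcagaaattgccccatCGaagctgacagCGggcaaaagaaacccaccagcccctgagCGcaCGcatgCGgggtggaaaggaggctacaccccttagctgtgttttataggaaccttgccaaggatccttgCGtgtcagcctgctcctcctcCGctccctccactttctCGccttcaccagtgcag
Dpp10, chr1:124045510-124045809, minus strand: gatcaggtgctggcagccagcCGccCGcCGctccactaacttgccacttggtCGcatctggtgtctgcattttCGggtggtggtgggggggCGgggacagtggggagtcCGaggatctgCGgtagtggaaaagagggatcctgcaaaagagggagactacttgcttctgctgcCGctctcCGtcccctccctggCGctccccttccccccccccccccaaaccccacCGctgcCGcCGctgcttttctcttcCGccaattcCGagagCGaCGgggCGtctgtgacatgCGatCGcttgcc
The letters CG, which read the same on both strands, occur 7 times in the Kcnip1 window, 10 times in that of Dpp6, and 21 times in that of Dpp10. Of 32851 windows of this length, 52.1%, 43.5%, and 24.8% hold at least as many. All 8 members matched the table, with 15 starts between them, and the counts ran from 4 at a start of Kcnip1 and of Kcnip3 to 28 at the most internal start of Kcnip3. The counts are per gene, from a 3′ chemistry, so which start was used was not measured.

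The pore-forming subunits had different spreads. Kcnd2 varied least of the 8 members over neuron classes. Its mean over the 6 libraries was 2351 ± 174 CPM (SD, n = 6) in NP-like nuclei, the near-projecting neurons of deep layers, and 2297 ± 278 CPM in OPC-like nuclei (oligodendrocyte precursors). Among neurons it was lowest in VIP-like interneurons at 1019 ± 134 CPM, so that the highest and lowest neuron classes differed 2.31-fold. Free RNA held 399 to 1490 CPM of Kcnd2, and the astrocyte-like level lay below it in 4 of 6 libraries and the VIP-like level in 2 of 6. Kcnd3 varied 5.71-fold over neurons. It was highest in NPY-like interneurons (528 ± 112 CPM) and VIP-like interneurons (502 ± 109 CPM) and lowest in PV-like interneurons (92.6 ± 21.9 CPM) and NP-like neurons (105 ± 24.8 CPM). NP-like neurons thus combined the highest Kcnd2 level with a Kcnd3 level near the bottom. Free RNA held 119 to 332 CPM of Kcnd3, above the PV-like and NP-like levels in each of the 6 libraries, and with free RNA subtracted these were 53.2 and 61.0 CPM.

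Of the KChIPs, Kcnip1 had the sharpest pattern of all 8 members. VIP-like nuclei held 823 CPM in the lowest, 1019 in the median, and 1450 in the highest library. SST-like nuclei followed at 712 ± 68.1 CPM, NP-like at 542 ± 64.6, NPY-like at 503 ± 84.6, PV-like at 416 ± 66.5, and OPC-like at 343 ± 124 CPM. In L2/3-like neurons the 6 libraries lay between 1.89 and 12.5 CPM, and no library of the L2/3-like class came near any library of these 6 classes. Free RNA alone held 22.6 to 68.6 CPM of Kcnip1, and every pyramidal-like class other than NP-like lay below it in each of the 6 libraries. These classes had means from 5.99 CPM in L2/3-like to 28.3 CPM in L5ET-like neurons, and their order was not read. With free RNA subtracted, Kcnip1 was 0.157 CPM in L2/3-like, 0.536 in mid-layer-like, 1.45 in L5-like, and 0.877 in L6CT-like neurons. The levels of those classes are therefore read as background. The L5ET-like level stayed within 1 SD of 28.3 CPM after subtraction and is not read as background alone.

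Among pyramidal-like neurons, Kcnip1 was thus mainly a gene of the NP-like class, which held 46.8% to 77.4% of all pyramidal-like Kcnip1 UMIs with 3.22% to 6.37% of the nuclei. After each nucleus was thinned to 1000 UMIs, 37.6% to 46.0% of NP-like nuclei still had a Kcnip1 UMI, against 27.9% to 34.6% of PV-like, 55.0% to 70.7% of VIP-like, and 0.0887% to 1.51% of L2/3-like nuclei. Before thinning, the shares were 44.2% to 84.9% in NP-like and 0.444% to 8.52% in L2/3-like nuclei. In astrocyte-like nuclei, where the gene should be absent, 0.408% to 2.70% of thinned nuclei had one. The inhibitory markers summed to 30.5 to 310 CPM in NP-like nuclei and to 8800 to 10447 CPM in PV-like nuclei. Gad1, which makes GABA, lay at 7.01 to 12.7 CPM in the former and at 193 to 256 CPM in the latter.

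**Figure D1:**
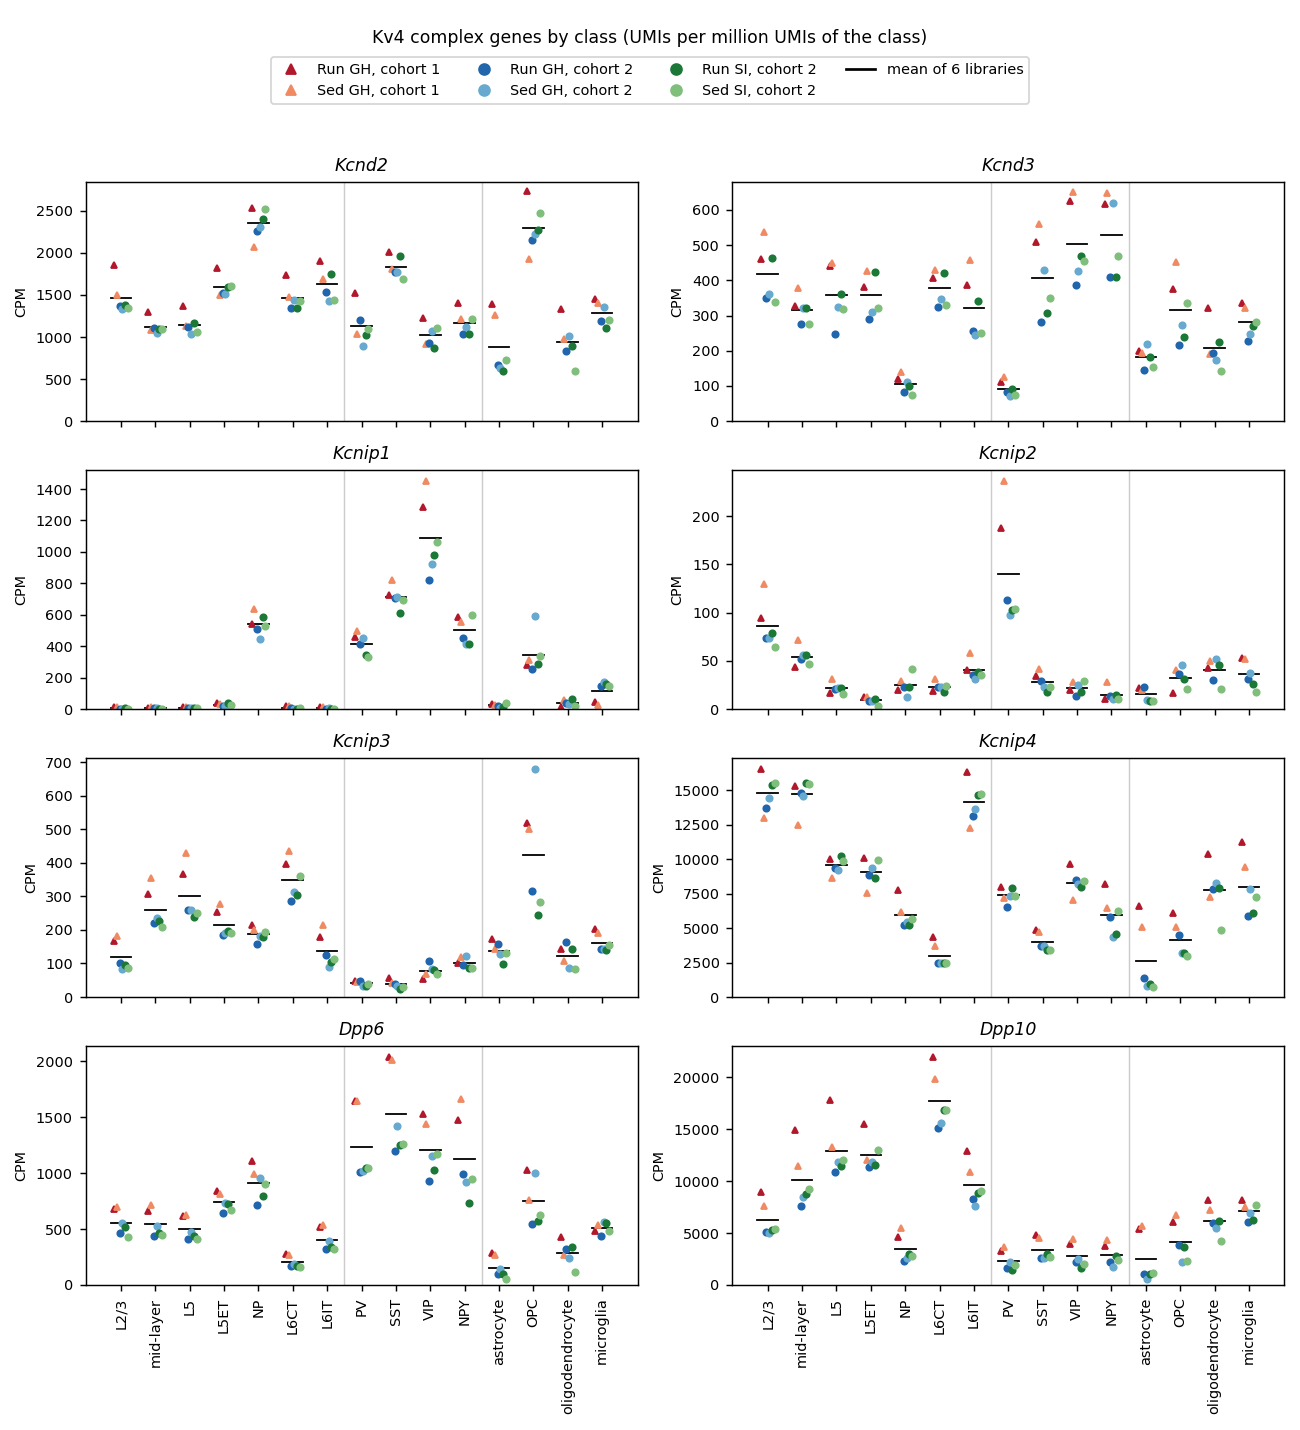
Level of the 8 members (CPM, linear axes from 0, a scale for each gene) in 15 classes, with 1 point per library in the color of its group and the mean of the 6 libraries as a black line. Kcnip1 is high in interneuron-like, NP-like, and OPC-like classes and at 1.89 to 12.5 CPM in the L2/3-like class, whereas Dpp10 is highest in L6CT-like neurons.

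Kcnip2 had its highest level in PV-like interneurons. The 6 libraries gave 97.3 to 236 CPM there, with a median of 108, and 64.5 to 130 CPM in L2/3-like neurons. In each library the PV-like level was above the L2/3-like one. Mid-layer-like neurons had 54.2 ± 9.95 CPM, and L5ET-like neurons (extratelencephalic, projecting below the cortex) had 9.29 ± 3.51 CPM. Free RNA held 39.7 to 63.1 CPM of Kcnip2. The PV-like and L2/3-like classes lay above it in each of the 6 libraries and the mid-layer-like class in 4 of 6, and the order of the classes below it was not read.

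Kcnip3, also known as DREAM or calsenilin and the member with a described second role as a calcium-sensitive repressor in the nucleus, varied among the pyramidal-like classes with no single order from upper to deep layers. L6CT-like neurons (corticothalamic) held 349 ± 58.6 CPM, L5-like neurons 301 ± 77.6, and mid-layer-like neurons 259 ± 59.1 CPM. L5ET-like and NP-like neurons held 216 ± 38.6 and 188 ± 18.7 CPM, and the deep L6IT-like class, at 137 ± 48.3 CPM, lay near L2/3-like neurons at 119 ± 43.8 CPM. PV-like interneurons held 40.7 ± 7.55 and SST-like interneurons 37.5 ± 11.03 CPM. OPC-like nuclei reached 425 ± 170 CPM. Free RNA held 88.6 to 186 CPM of Kcnip3, above the L2/3-like, PV-like, SST-like, and VIP-like levels in each of the 6 libraries, so these are not ordered. With free RNA subtracted, the PV-like and SST-like levels were 17.4 and 12.6 CPM. The spread of the OPC-like class was wide, and Sed GH of cohort 2 had only 21 such nuclei.

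Kcnip4 was highest in pyramidal-like neurons other than L6CT-like and NP-like ones, with 14778 ± 1312 CPM in L2/3-like, 14699 ± 1144 in mid-layer-like, and 14122 ± 1420 in L6IT-like neurons (intratelencephalic, projecting within the cortex). These classes could not be set apart, since their libraries overlapped. L6CT-like neurons held 3000 ± 819 CPM, the lowest neuron level, with 2471 to 2501 CPM in the 4 libraries of cohort 2 and 3711 and 4339 CPM in Sed GH and Run GH of cohort 1. The L6CT-like level lay below free RNA in 5 of 6 libraries and was 1826 CPM with free RNA subtracted. Free RNA carried 11052 and 11819 CPM of Kcnip4 in cohort 1 and 2033 to 5829 CPM in cohort 2. The astrocyte-like class showed the same split, with 5065 and 6575 CPM in cohort 1 and 727 to 1397 CPM in cohort 2, and microglia-like and oligodendrocyte-like nuclei had neuron-like levels of 7962 ± 2054 and 7743 ± 1785 CPM. The level of Kcnip4 in glia-like classes is therefore not read as expression.

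Per kb of gene, the mix of KChIPs differed between classes, with the sum of the 4 per-kb levels set to 100%. Kcnip4 made up 71.1% ± 6.80 (SD, n = 6) in L2/3-like and 76.9% ± 5.96 in L6IT-like neurons. In L6CT-like neurons Kcnip3 was the largest part, at 59.8% ± 2.38, and Kcnip4 made up 29.3% ± 3.51. PV-like interneurons held 39.9% ± 8.39 Kcnip2 beside 47.4% ± 7.88 Kcnip4. SST-like interneurons held 27.6% and VIP-like interneurons 24.0% Kcnip1, whereas its share was 0.0858% ± 0.0599 in L2/3-like neurons. Per kb, each of the KChIPs was therefore a large part of the mix in some class. Whether UMIs rise in proportion to gene length was not tested, and the division raises short genes such as Kcnip2 (24.2 kb) over Kcnip4 (1135.4 kb). In CPM, PV-like interneurons held 140 of Kcnip2 beside 7370 of Kcnip4, and L6CT-like neurons 349 of Kcnip3 beside 3000 of Kcnip4. The shares per kb therefore depend on this choice.

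The DPP genes were spread in opposite ways. Dpp10 was highest in L6CT-like neurons, where the lowest, median, and highest libraries had 15100, 16854, and 21981 CPM. L5-like (12864 ± 2539 CPM) and L5ET-like neurons (12532 ± 1543 CPM) followed, L2/3-like neurons had 6224 ± 1652 CPM, and PV-like interneurons the lowest neuron level, 2338 ± 892 CPM. Dpp6 was highest in SST-like interneurons (1533 ± 390 CPM), with PV-like, VIP-like, and NPY-like interneurons at 1235 ± 318, 1209 ± 232, and 1123 ± 362 CPM. Among the neuron classes it was lowest in L6CT-like neurons at 206 ± 53.0 CPM, the class with the most Dpp10, and astrocyte-like nuclei held 156 ± 97.4 CPM. Free RNA held 2204 to 11374 CPM of Dpp10 and 208 to 577 CPM of Dpp6. The PV-like, SST-like, VIP-like, and NP-like levels of Dpp10 lay below it in 5 of 6 libraries. The NPY-like level of Dpp10 and the L6CT-like level of Dpp6 lay below it in 6 of 6. The astrocyte-like level of Dpp10 moved with free RNA, from 565 to 1184 CPM in cohort 2 to 5404 and 5720 CPM in cohort 1.

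Over the 11 neuron classes, Kcnip3 and Dpp10 had levels that went together (Pearson r = 0.83 of log2 levels), Dpp6 and Dpp10 went apart (r = −0.87), and Kcnip4 and Dpp10 did not follow each other (r = 0.16). The points share libraries, depth, and free RNA, and some levels lie below free RNA as given above, so these values only describe the pattern. No value is given for Kcnip1, since 6 of its 11 levels lay below that of free RNA in each library.

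**Figure D2:**
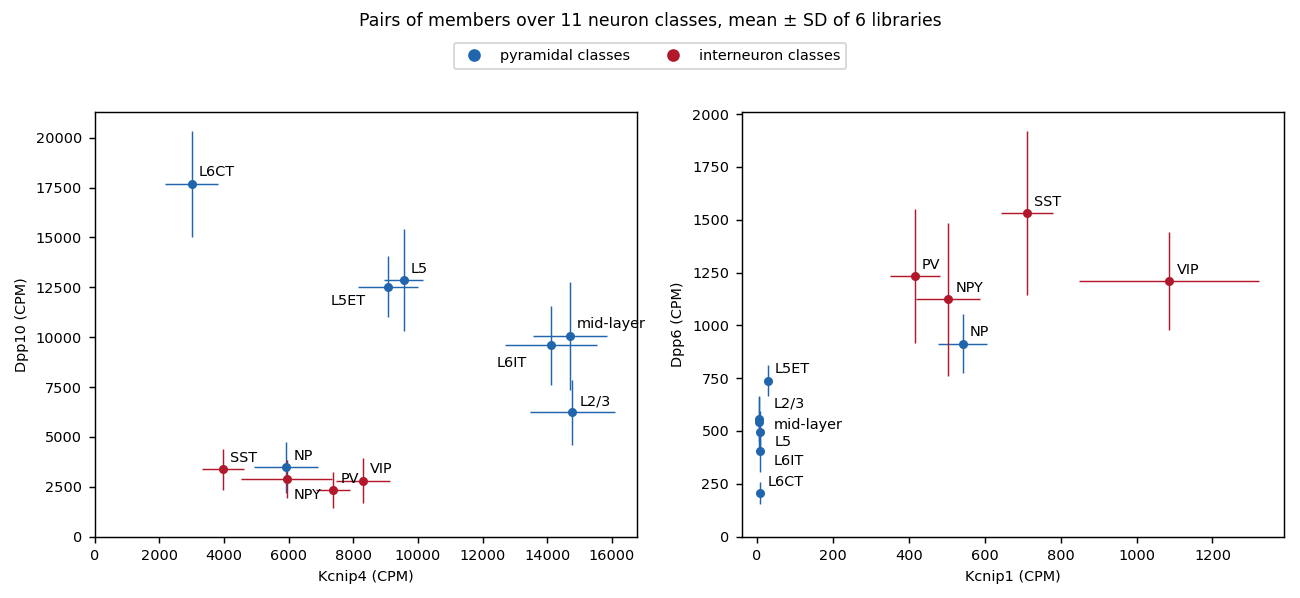
Dpp10 against Kcnip4 (left) and Dpp6 against Kcnip1 (right) over 11 neuron classes, in CPM, with points at the mean and bars of 1 SD over 6 libraries, pyramidal-like classes in blue and interneuron-like classes in red. The NP-like class sits with the interneuron-like classes in both plots, at 542 CPM of Kcnip1 and 3466 CPM of Dpp10, and the L6CT-like class has the most Dpp10 (17697 CPM) with the least Kcnip4 of the neuron classes (3000 CPM).

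The order of the classes was examined for each member by comparing neighbours in the order of means within each library. Of 112 neighbouring pairs, 31 had the same order in all 6 libraries, with the smallest p that an exact sign-flip permutation test (two-sided) over 6 libraries can give, 0.03125, and the adjusted p of these 31 was 0.113. These 31 pairs held the smallest p possible, so the test could not pass any of them, however far apart their levels lay. Its outcome does not say that neighbouring classes are alike. Of all 105 pairs of classes, the order was the same in the 6 libraries for 89 in Dpp10 and in Dpp6, 86 in Kcnip3, 84 in Kcnip4, 82 in Kcnip1, 78 in Kcnd2, 76 in Kcnd3, and 65 in Kcnip2.

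Classes were then compared with edgeR's quasi-likelihood test on summed UMI counts with library as a block, and adjusted p-values are Benjamini-Hochberg values over all genes tested. The members were left out of the genes used for clustering. Between inhibitory-like and pyramidal-like nuclei all 8 members passed the threshold of 0.05, where 53.9% of the 15703 genes tested passed, 29.8% higher and 24.1% lower in inhibitory-like nuclei. Kcnip1 was higher in inhibitory-like nuclei by a log2 fold change of 4.41 ± 0.09 (SE), Dpp6 by 1.22 ± 0.05, and Kcnip2 by 0.48 ± 0.05. Kcnip3 was lower (−2.19 ± 0.08), as were Dpp10 (−2.08 ± 0.06), Kcnip4 (−0.93 ± 0.04), Kcnd3 (−0.33 ± 0.05), and Kcnd2 (−0.18 ± 0.04, adjusted p = 0.00114). The pyramidal-like level of Kcnip1 and the inhibitory-like level of Kcnip3 lay below those of free RNA in 6 of 6 libraries, and with free RNA subtracted these 2 log2 fold changes were 4.97 and −3.52. The inhibitory-like level of Dpp10 lay below that of free RNA in every library but Sed GH of cohort 2. It was 2796 CPM, and 1546 CPM with free RNA subtracted, so the size of its difference is not read as exact. The pore-forming genes differed least in these sums, which pool unlike interneuron classes. Kcnd3 was below the pyramidal-like 359 CPM only in PV-like nuclei (92.6). SST-like, VIP-like, and NPY-like nuclei held 406, 502, and 528 CPM of it. Kcnip2 was above the pyramidal-like 46.1 CPM only in PV-like nuclei (140), with 28.0, 22.2, and 14.5 CPM in those classes. Kcnd2 was above the pyramidal-like 1420 CPM in SST-like nuclei (1836), but not in PV-like, VIP-like, or NPY-like nuclei. The median of the members was −0.25 and that of all genes tested 0.06.

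The comparison of L6CT-like with L2/3-like neurons set the lowest and the highest mean level of Kcnip4 among pyramidal-like classes against each other. For the DPP genes the class farthest from L6CT-like was NP-like, with 3466 CPM of Dpp10 and 913 CPM of Dpp6. Of the 8 members 6 passed, where 41.3% of genes did (18.7% higher and 22.6% lower). Kcnip3 (1.58 ± 0.11), Dpp10 (1.53 ± 0.07), and Kcnip1 (0.51 ± 0.15) were higher in L6CT-like neurons, and Kcnip4 (−2.34 ± 0.10), Kcnip2 (−1.95 ± 0.11), and Dpp6 (−1.45 ± 0.06) were lower. Kcnd3 (−0.14 ± 0.06, adjusted p = 0.0891) and Kcnd2 (0.00 ± 0.06, adjusted p = 0.971) did not pass. The L6CT-like levels of Kcnip2 and Dpp6 and the L2/3-like level of Kcnip3 lay below those of free RNA in each library. The L6CT-like level of Kcnip4 did so in every library but Sed GH of cohort 2. The sizes for these genes are therefore not read as exact. The Kcnip1 difference lies between 2 levels under that of free RNA and was lost in cohort 2 alone (0.32, adjusted p = 0.411) and without Run GH of cohort 1 (0.49, adjusted p = 0.0647).

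Among interneurons, 7 of 8 members differed between SST-like and PV-like nuclei, where 26.0% of genes did (12% higher and 14.1% lower). Kcnd3 had the largest log2 fold change toward SST-like nuclei, 2.06 ± 0.08. Its levels were 283 to 559 CPM in SST-like and 72.4 to 126 CPM in PV-like nuclei and did not overlap. The PV-like levels lay below that of free RNA in each library, with a mean of 53.2 CPM after free RNA was subtracted. The size of the Kcnd3 difference is therefore not read as exact. Kcnip1 (0.78 ± 0.06), Kcnd2 (0.70 ± 0.05), Dpp10 (0.56 ± 0.06), and Dpp6 (0.30 ± 0.05) were also higher in SST-like nuclei, and Kcnip2 (−2.34 ± 0.11) and Kcnip4 (−0.91 ± 0.05) were lower. The SST-like level of Kcnip2 lay below that of free RNA in each library, and that of Kcnip4 in every library but Sed GH of cohort 2. The sizes for these genes are therefore not read as exact. Kcnip3 did not pass (−0.10 ± 0.13, adjusted p = 0.676). The Dpp10 call was lost when free RNA was subtracted (adjusted p = 0.0549, log2 fold change 2.13).

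VIP-like and NPY-like nuclei together differed from PV-like and SST-like nuclei in 7 of 8 members, where 27.1% of genes did (12.4% higher and 14.7% lower). Kcnd3 (1.16 ± 0.07), Kcnip1 (0.70 ± 0.07), and Kcnip4 (0.33 ± 0.05) were higher there, and Kcnip2 (−2.35 ± 0.14), Kcnd2 (−0.44 ± 0.06), and Dpp6 (−0.22 ± 0.06, adjusted p = 0.00211) were lower. Kcnip3 also passed (1.02 ± 0.12), but its levels lay below that of free RNA in 5 of 6 and 6 of 6 libraries, so no order is read from it. The Kcnip2 level of VIP-like and NPY-like nuclei together lay below that of free RNA in each library, so its size is not read as exact. Dpp10 did not pass (0.01 ± 0.05, adjusted p = 0.935). Both of its levels lay below that of free RNA in every library but Sed GH of cohort 2, so their likeness is not read. With free RNA subtracted, Dpp10 was 1473 CPM in VIP-like, 1576 in NPY-like, 987 in PV-like, and 2318 in SST-like nuclei. In OPC-like against astrocyte-like nuclei 7 members were higher and none was lower, where 35.9% of genes passed, that is 16.5% higher and 19.4% lower. The largest differences were those of Kcnip1 (3.45 ± 0.20), Dpp6 (2.14 ± 0.19), Kcnip3 (1.32 ± 0.17), and Kcnd2 (1.25 ± 0.18). The inhibitory markers summed to 1397 to 2380 CPM in OPC-like nuclei and to 1508 to 2013 CPM in SST-like nuclei. Gad1 lay at 0 to 63.2 CPM in the former and at 81.1 to 132 CPM in the latter. The part of interneuron RNA in these differences was not tested. The astrocyte-like levels of Kcnip1 and Dpp6 lay below those of free RNA in 6 of 6 libraries. They were 10.6 and 46.5 CPM with free RNA subtracted, so these sizes are not read as exact. Kcnip4 (1.00 ± 0.22) and Dpp10 (0.94 ± 0.20) were no longer called once free RNA was subtracted, with adjusted p of 0.357 and 0.124. The amount subtracted was set from pyramidal markers in astrocyte-like nuclei, so this loss is no independent check.

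The balance of subunits was compared between classes as log2 ratios within each library, 9 comparisons in all with an exact sign-flip permutation test (two-sided). Of these, 7 had the same sign in 6 of 6 libraries (exact p = 0.03125, the smallest the 6 libraries allow, adjusted p = 0.0402). The share of Kcnip1 among the KChIP UMIs was higher by 5.18 ± 0.37 (SD, n = 6) on the log2 scale in inhibitory-like than in pyramidal-like nuclei, whose Kcnip1 level lay below that of free RNA in 6 of 6 libraries, so its size is not read as exact (5.96 with free RNA subtracted). It was higher by 1.54 ± 0.31 in SST-like than in PV-like nuclei. The ratio of Dpp10 to Dpp6 was lower by 3.30 ± 0.19 in inhibitory-like nuclei, with the log2 difference between −3.53 and −3.08 in the 6 libraries, and higher by 2.98 ± 0.26 in L6CT-like than in L2/3-like neurons. The inhibitory-like level of Dpp10 lay below that of free RNA in every library but Sed GH of cohort 2. The L6CT-like level of Dpp6 did so in 6 of 6 libraries, so neither size is read as exact. The ratio of Kcnd3 to Kcnd2 was higher by 1.39 ± 0.34 in SST-like than in PV-like nuclei, whose Kcnd3 level lay below that of free RNA in 6 of 6 libraries. It did not differ beyond the spread between inhibitory-like and pyramidal-like nuclei (−0.15 ± 0.22, higher in 2 of 6 libraries, adjusted p = 0.156), nor did the Dpp10 to Dpp6 ratio between SST-like and PV-like nuclei (0.25 ± 0.35, higher in 5 of 6, adjusted p = 0.105). The other 2 were the Kcnip1 share (2.54 ± 0.45, on background levels) and the Kcnd3 to Kcnd2 ratio (−0.14 ± 0.09) of L6CT-like against L2/3-like neurons.

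Relatives and partners of the complex were counted from 2 lists. The first holds Kcnd1 and reported Kv4 partners such as Kvβ subunits and scaffold proteins, 15 of them in the tables, and the second holds relatives of KChIPs and DPPs and other A-type subunits, 15 in the tables. Between inhibitory-like and pyramidal-like nuclei, 4 of 11 tested genes of the first list were higher and 4 lower, led by Kcnab3 (2.90 ± 0.16), a Kvβ subunit, and Dlg1 (−1.38 ± 0.05), a synaptic scaffold. Of the second list 2 of 14 were higher and 10 lower, among them Fap (−2.12 ± 0.15) and Dpp4 (−2.03 ± 0.32), active peptidases related to DPP6. The median of the first list was 0.05 and that of the second −0.41, beside 0.06 for all genes, of which 53.9% passed.

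In L6CT-like against L2/3-like neurons, 2 of 11 genes of the first list were higher and 2 lower, with Flna (1.93 ± 0.12), an actin cross-linker, and Kcnab3 (1.25 ± 0.25) up and Kcnab1 (−1.21 ± 0.14) down. Of the second list 6 of 14 were higher and 4 lower, and Dpp4 differed most (4.00 ± 0.21). In SST-like against PV-like nuclei the counts were 3 higher and 5 lower of 11 for the first list, led by Kcnab3 (−1.92 ± 0.19), and 3 higher and 4 lower of 11 for the second. VIP-like and NPY-like against PV-like and SST-like nuclei gave 0 higher and 4 lower of 11 in the first list, again led by Kcnab3 (−1.81 ± 0.23), and 5 higher and 0 lower of 11 in the second, led by Kcna4 (1.27 ± 0.20), the Kv1 subunit of A-type currents. In OPC-like against astrocyte-like nuclei, Kcnab1 (0.95 ± 0.20) was the only 1 of 7 in the first list to pass, and 3 of 7 in the second passed, all higher, among them Hpcal1 (1.59 ± 0.37) and Ncald (1.58 ± 0.17). Of all genes tested, 41.3%, 26.0%, 27.1%, and 35.9% passed in these contrasts, in the order given.

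For 6 of the members, the genes with the most similar levels over the 15 classes were sought among 9808 genes. Dpp10 was most like Pde1a (r = 0.93), Homer1 (0.92), and Ext1 (0.91), and Kcnip4 like Gm12027 (0.96), Zdhhc8 (0.88), and Pkib (0.87). Dpp6 was most like Carmil3 (0.90), Sntg1 (0.90), and Siah3 (0.89), and Kcnip3 like Coq10b (0.87), Sept8 (0.86), and Gm46123 (0.84). Values were lower for the genes nearest to Kcnd2, with Psmf1 (0.82), Nabp2 (0.80), and Zdhhc15 (0.79). Kcnd3 was most like Gm43847 (0.91), which lies within an intron of Kcnd3 itself, followed by Mamld1 (0.75) and Egfem1 (0.72). These are Pearson correlations over classes that share libraries, depth, and free RNA, and levels read as background above are among their points.

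The maternal environment was tested with both cohorts together, and no member passed in any class tested. The comparison asks whether Run and Sed mice differ in the complex, with cohort and housing as terms. In pyramidal-like nuclei 0 of 8 members and 0% of 17958 genes were called by edgeR, 1320 genes having an unadjusted p under 0.05. DESeq2 called 0.284% of genes and no member. The members' log2 fold changes lay between −0.14 ± 0.10 (Kcnip2) and 0.09 ± 0.16 (Kcnip1). In PV-like, SST-like, and astrocyte-like nuclei 0 of 8 members were called as well, where 0.0946%, 0.107%, and 0.078% of genes were, and also in L2/3-like, L6CT-like, NP-like, and VIP-like nuclei, where 0.00692%, 0.0153%, 0.0856%, and 0.109% were. None of the listed partners and relatives was called in these fits.

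Dpp10 in PV-like interneurons had 3231 CPM in Run GH and 3622 CPM in Sed GH of cohort 1, 1657 and 2209 CPM in Run GH and Sed GH of cohort 2, and 1411 and 1895 CPM in Run SI and Sed SI. Run was thus lower within each of the 3 pairs, although the cohorts differed more than the pairs. The log2 ratios were −0.16, −0.41, and −0.43, with 95% intervals of −0.22 to −0.11, −0.53 to −0.30, and −0.52 to −0.33 that cover counting error only. In VIP-like nuclei the Dpp10 ratios were also below 0 in each pair (−0.16, −0.16, and −0.32), as were those of Kcnip1 (−0.17, −0.16, and −0.12). SST-like and NPY-like nuclei had Dpp10 ratios of both signs. How many genes kept the same sign in the 3 pairs is not given here. The pattern is therefore not read as a trait of PV-like nuclei. The fit for PV-like nuclei gave −0.35 ± 0.12 (adjusted p = 0.572). Without Run GH or Sed GH of cohort 1, which leaves the comparison to cohort 2, it gave −0.47 in both cases. Both rest on the same cohort 2 libraries with a single residual degree of freedom, so only the size is given. Free RNA made up an estimated 34.7% and 32.6% of PV-like UMIs in Run GH and Sed GH of cohort 1 and 8.13% to 14.4% in cohort 2. Free RNA itself held 9297 and 11374 CPM of Dpp10 in Run GH and Sed GH of cohort 1, 4450 and 2204 CPM in Run GH and Sed GH of cohort 2, and 5236 and 3511 CPM in Run SI and Sed SI. It was thus lower in Run in cohort 1 and higher in Run in both pairs of cohort 2. The mean PV-like level was 987 CPM with free RNA subtracted, instead of 2338 CPM. With free RNA subtracted, the fit gave −0.88 ± 0.32 (adjusted p = 0.980).

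Kcnd2 in PV-like interneurons had 1518 and 1031 CPM in Run GH and Sed GH of cohort 1, 1196 and 896 CPM in Run GH and Sed GH of cohort 2, and 1026 and 1091 CPM in Run SI and Sed SI. It was higher in Run in both group-housed pairs and not in the isolated pair. The cohort 1 log2 ratio was 0.56, and 17.8% of genes lay past 0.5 in that pair. The fit gave 0.27 ± 0.13 (adjusted p = 0.741).

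In astrocyte-like nuclei, Kcnip4 had 6575 and 5065 CPM in Run GH and Sed GH of cohort 1, 1397 and 812 CPM in Run GH and Sed GH of cohort 2, and 926 and 727 CPM in Run SI and Sed SI. Run was higher within each pair, and the fit gave 0.46 ± 0.12 (adjusted p = 0.116). Its levels lay below those of free RNA in each library, and with free RNA subtracted the fit turned to −0.99 ± 0.92 (adjusted p = 1.00). The summed pyramidal markers of this class were also higher in Run in each pair, at 1125 and 904 CPM in Run GH and Sed GH of cohort 1, 722 and 485 CPM in Run GH and Sed GH of cohort 2, and 671 and 531 CPM in Run SI and Sed SI. The amount subtracted was set from the pyramidal markers of this same class, so the fit after subtraction is no independent check. The part of free RNA and of pyramidal RNA in the difference was not tested.

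Kcnip4 in pyramidal-like nuclei was higher in Run in cohort 1 and lower in Run in cohort 2. Its level was 13574 CPM in Run GH and 9552 CPM in Sed GH of cohort 1 (log2 ratio 0.51). In cohort 2 it was 10287 and 11141 CPM in Run GH and Sed GH (−0.12) and 10920 and 11754 CPM in Run SI and Sed SI (−0.11). The pooled fit gave 0.05 ± 0.17 (adjusted p = 0.956), and without Run GH or Sed GH of cohort 1 the value was −0.20 in both cases. Both rest on the same cohort 2 libraries with a single residual degree of freedom, so only the size is given.

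**Figure D3:**
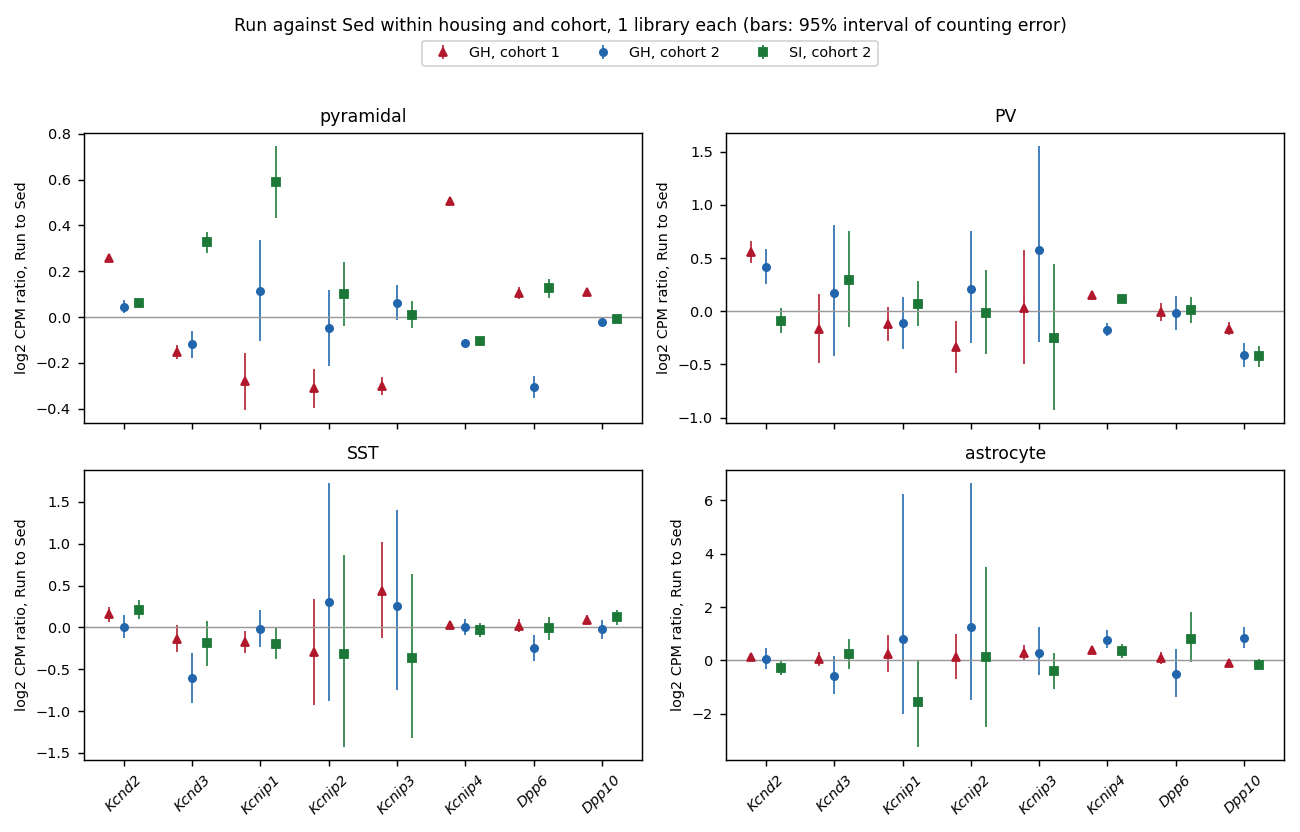
Log2 ratio of Run to Sed CPM for each member within each of the 3 pairs of libraries that share cohort and housing, by class; bars are 95% intervals of counting error and the line marks 0. In PV-like nuclei the Dpp10 ratio is below 0 in each pair (−0.16, −0.41, and −0.43), and in pyramidal-like nuclei Kcnip4 is at 0.51 in cohort 1 and at −0.12 and −0.11 in cohort 2.

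A test of that difference between cohorts (cohort by maternal environment interaction, cohort 2 minus cohort 1, with a single residual degree of freedom) called 3 of 8 members in pyramidal-like nuclei, where 12.6% of 18712 genes were called. They were Kcnip4 (−0.75 ± 0.10, adjusted p = 3.93e-10), Kcnd2 (−0.33 ± 0.11, adjusted p = 0.0360), and Kcnip1 (0.53 ± 0.19, adjusted p = 0.0413). DESeq2 called only Kcnip4 and 2.23% of genes. The log2 ratios of Run to Sed for Kcnip1 were −0.28 in cohort 1 and 0.11 and 0.59 in the GH and SI pairs of cohort 2, and without NP-like nuclei, which held 46.8% to 77.4% of its UMIs, they were −0.23, −0.25, and 0.82. With each class weighted equally the 3 ratios were −0.22, 0.14, and 0.17. The interaction was not called for Kcnip1 in any single pyramidal class (0.28 ± 0.17, adjusted p = 0.601, in NP-like neurons), and the call was lost with free RNA subtracted (0.65, adjusted p = 0.169). The part of the class shares in it was not tested. Of the lists, 2 of 12 genes, Flna (1.21 ± 0.21) and Kcnab2 (0.47 ± 0.15), and 2 of 14 genes, among them Dpp7 (1.22 ± 0.29), were called. No member was called in PV-like, SST-like, or astrocyte-like nuclei, where 0.977%, 0.858%, and 0.069% of genes were.

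The share of L6CT-like nuclei, the neuron class with the least Kcnip4, differed between libraries. In cohort 1, 10.3% of the pyramidal-like nuclei of Run GH and 23.8% of those of Sed GH were L6CT-like, and in cohort 2 it was 17.6% and 11.6% in Run GH and Sed GH and 14.8% and 13.9% in Run SI and Sed SI. With the 7 pyramidal-like classes at equal weight, a calculation added after these shares were seen, the cohort 1 log2 ratio of Kcnip4 was 0.33 instead of 0.51, and the cohort 2 ratios were −0.03 and −0.03. Within single classes, the same interaction called Kcnip4 in L2/3-like (−0.53 ± 0.12), mid-layer-like (−0.39 ± 0.09), L5ET-like (−0.71 ± 0.13), NP-like (−0.55 ± 0.11), and L6IT-like neurons (−0.58 ± 0.12), but not in L5-like (−0.33 ± 0.10, adjusted p = 0.0611) or L6CT-like neurons (−0.32 ± 0.12, adjusted p = 0.127). The part of the class shares in the Kcnip4 difference was not tested. Dpp10, which was not called in the sum (−0.25 ± 0.10, adjusted p = 0.0970), was called in mid-layer-like (−0.61 ± 0.10), L5-like (−0.67 ± 0.10), and L5ET-like neurons (−0.64 ± 0.12). Kcnd2 was called in NP-like (−0.46 ± 0.13) and L6CT-like neurons (−0.43 ± 0.13), Dpp6 in NP-like neurons (−0.55 ± 0.15), and Kcnip2 in mid-layer-like neurons (0.71 ± 0.22). In L2/3-, mid-layer-, L5-, L5ET-, NP-, L6CT-, and L6IT-like neurons, 2.85%, 4.83%, 3.19%, 4.14%, 1.55%, 4.10%, and 3.15% of genes were called. How much of each cohort's RNA was free RNA differed as given above, and its part in the interaction was not tested.

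Social isolation was represented in cohort 2 alone, by Run SI and Sed SI. Of the 8 members, 0 were called in pyramidal-like, PV-like, SST-like, or astrocyte-like nuclei by edgeR, where 0%, 0%, 0%, and 0.0334% of genes were and 173, 170, 232, and 417 genes had an unadjusted p under 0.05. DESeq2 also called none of the 8. The fold change of Kcnip1 in pyramidal-like nuclei was 0.46 ± 0.19 (not called), and 0.47 without Run GH or Sed GH of cohort 1. The latter fits rest on the same cohort 2 libraries with a single residual degree of freedom, so only the size is given.

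Kcnip1 in pyramidal-like nuclei had 38.5 CPM in Run SI against 25.6 in Sed SI, 24.3 in Run GH, and 22.5 in Sed GH of cohort 2, and 26.1 and 31.7 CPM in Run GH and Sed GH of cohort 1. Run SI stood above the other libraries, but the summed level lay below that of free RNA in each of the 6. Free-RNA Kcnip1 was itself highest in Run SI, at 68.6 CPM against 38.7, 48.7, and 22.6 CPM in Sed SI, Run GH, and Sed GH of cohort 2, and its part in the difference was not tested. Run SI also had the largest share of NP-like nuclei, 6.37%, against 4.74%, 4.92%, and 4.43% in Sed SI, Run GH, and Sed GH of cohort 2. With the pyramidal-like classes at equal weight the log2 ratio of Run SI to Sed SI was 0.17 instead of 0.59, and that of Run SI to Run GH 0.22 instead of 0.66. Without the NP-like nuclei, however, the ratios were 0.82 and 0.62, at levels of 6.01 to 16.7 CPM, below those of free RNA. Within NP-like nuclei Kcnip1 lay at 588 CPM in Run SI, 531 in Sed SI, 508 in Run GH, and 448 in Sed GH of cohort 2.

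**Figure D4:**
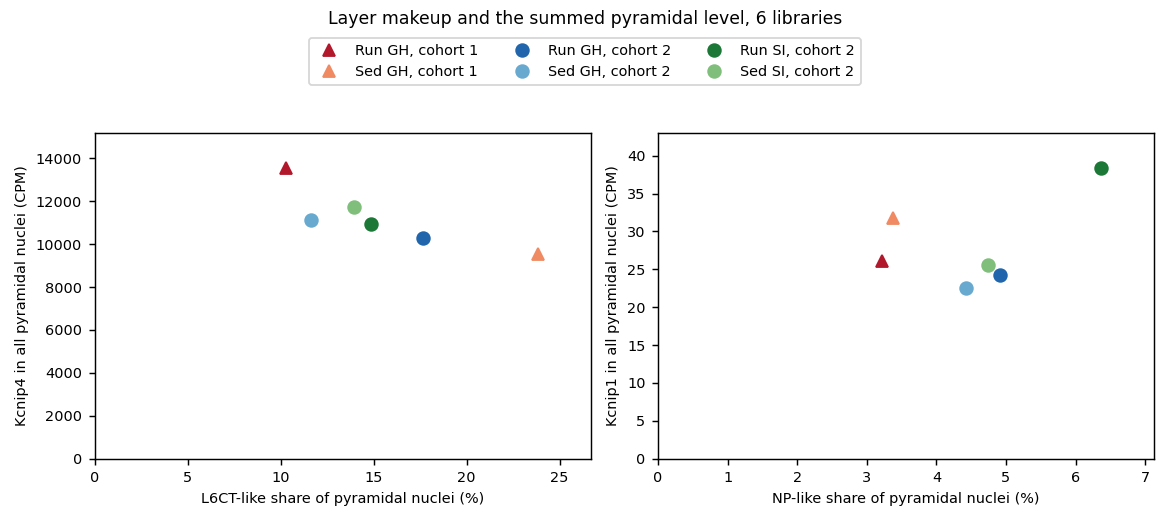
Share of a class among pyramidal-like nuclei (%) against the level of a member in all pyramidal-like nuclei (CPM), with 1 point per library, L6CT-like share and Kcnip4 on the left and NP-like share and Kcnip1 on the right. Sed GH of cohort 1 has the largest L6CT-like share (23.8%) and the lowest Kcnip4 level (9552 CPM), and Run SI the largest NP-like share (6.37%) and the highest Kcnip1 level (38.5 CPM).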

How the data were processed

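Nuclei of the PL were profiled by snRNA-Seq (10x Chromium 3′ V3) in 6 libraries. Per the labels and the study's methods, reads were aligned to mm10 with intron reads included, with Cell Ranger 6.0.0 (submitters' processing notes). The authors deposited whole-number UMI counts per gene and barcode for all barcodes, with no filter on cells. Barcodes with 500 to 4000 genes, at most 1% mitochondrial UMIs and a minimum UMI count of 621 to 3156, set per library at 10% of the 99th percentile of the largest barcodes, were kept as nuclei.

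Each cohort was clustered separately with scanpy 1.11.5 and leidenalg 0.10.2 (3000 variable genes, 35 principal components, resolution 0.6), leaving out the members and listed genes, and clusters were named from markers, with at least 3 detected. Scrublet marked 0 to 6.79% of nuclei per library as doublets (0 in Sed GH of cohort 2, where it did not work), and these were kept. UMIs were summed per class and library. Free RNA was taken from barcodes under 100 UMIs. The median background barcode held 1065 and 1176 UMIs in Run GH and Sed GH of cohort 1 and 82 to 302 UMIs in cohort 2. That limit thus lay above the median only in Sed GH of cohort 2, and the barcodes under it may be of another kind in each library. The amount of free RNA per nucleus was set in each library from the pyramidal markers in astrocyte-like nuclei. Conditions were tested on these sums with edgeR 4.0.16 (R 4.3.3), with cohort, maternal environment, and housing as terms, which leaves 2 residual degrees of freedom. DESeq2 1.42.0 was an alternative. The replicate number marks the cohort: deviations of libraries sharing it correlated at 0.826, 0.716, 0.708, and 0.632 in pyramidal-like, PV-like, SST-like, and astrocyte-like nuclei. Class contrasts had library as a block. p-values measure only the spread between libraries, each a pool of mice.

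All members are named. Up to 4 called genes per list were to be named by size of change, and for likeness the 3 genes with the highest r of log2(CPM + 1) among genes with at least 20 CPM in a class. Some genes that these rules name are not reported here, and no likeness is given for Kcnip1, which was below the estimated free RNA level in every library in several classes. The members and lists were chosen with earlier results of these data known. The fits were tested on simulated data.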

Additional observations from a re-analysis of the deposited data

Results flagged for a closer look

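The difference between Run and Sed mice itself differed between cohorts in 15 results, by the interaction term of edgeR's quasi-likelihood fit (log2 scale, cohort 2 minus cohort 1, adjusted p under 0.05 over all genes). In all pyramidal-like nuclei these were Kcnip4 (−0.75), Kcnd2 (−0.33), and Kcnip1 (0.53), where 12.6% of all genes were called. DESeq2 called only Kcnip4 of the members there. Kcnip4 also differed in L2/3-like (−0.53), mid-layer-like (−0.39), L5ET-like (−0.71), NP-like (−0.55), and L6IT-like neurons (−0.58). Dpp10 differed in mid-layer-like (−0.61), L5-like (−0.67), and L5ET-like neurons (−0.64). Kcnd2 differed in NP-like (−0.46) and L6CT-like neurons (−0.43), Dpp6 in NP-like neurons (−0.55), and Kcnip2 in mid-layer-like neurons (0.71). The tests of single pyramidal-like classes were added after the data were seen. They called from 1.55% of all genes in NP-like to 4.83% in mid-layer-like neurons. Cohort 1 has 1 library in each arm, and the fit has 1 residual degree of freedom. The 2 cohorts also differ in behavioral testing, in the choice of the cohort 1 mice by rank, in depth, and in free RNA. Within cohort 1, Run and Sed mice may also differ in rank. These cannot be told apart.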

How the results depend on the processing

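The member counts of the class contrasts stayed within 1.5 times of their values under all settings run. For the conditions, leaving out 1 library at a time gave 0 to 1 members called for Run against Sed in pyramidal-like, PV-like, and astrocyte-like nuclei and for SI against GH in pyramidal-like and astrocyte-like nuclei, where 0 were called with all libraries. The share of all genes called moved too, from 0% to 16.5% and 16% in pyramidal-like and from 0.0946% to 0.943% and 1.44% in PV-like nuclei for Run against Sed without Run GH or Sed GH of cohort 1. Without Run GH or Sed GH of cohort 1, Kcnip4 in pyramidal-like nuclei turned from 0.05 to −0.20 in both, and over all libraries left out in turn it ranged from −0.20 to 0.18. Fits without 1 library have 1 residual degree of freedom. Those without a cohort 1 library rest on the same cohort 2 libraries, so they are not separate results. Dpp10 in astrocyte-like nuclei had a log2 fold change of 1.18 for SI against GH without Run GH of cohort 2. Sed GH, with 57 UMIs of Dpp10, was then the only GH library of cohort 2, so only the size is given. The astrocyte-like level of Dpp10 lay below that of free RNA in each library. Without a filter on low counts, 1 member (Kcnip4) was called for Run against Sed in astrocyte-like nuclei, where its level lay below that of free RNA. The shares of all genes called by these astrocyte-like fits and by the SI against GH fits are not given here. Their counts are therefore not read as a change of the members.

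The interaction of cohort and maternal environment called 3 members in pyramidal-like nuclei, 1 with DESeq2 and 1 after thinning to 1000 UMIs. The Kcnip1 call was lost under 7 alternatives and the Kcnd2 call under 3. In PV-like nuclei, where 0 were called, 1 was called without the filter on low counts, 1 with at least 1000 genes per nucleus, and 3 with free RNA subtracted. Subtraction also gave 1 in SST-like and 2 in astrocyte-like nuclei, where log-normalized clustering gave 1. The shares of all genes called by these alternative fits are not given here, so the counts are not read as a change of the members. Free RNA subtraction turned the astrocyte-like interaction of Dpp10 to −10.81 and of Kcnip4 to −4.09, and the cause was not tested. Its amount was set from pyramidal markers in this same class, and sums that fell below 0 were set to 0.

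Without the replicate block (cohort), 0 members were called for Run against Sed or SI against GH in any of the 4 classes, as with it. Subtracting free RNA moved 40 of 136 class levels beyond 1 SD.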

Other observations

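In microglia-like nuclei, Kcnip1 lay at 45.8 and 26.0 CPM in Run GH and Sed GH of cohort 1 and at 148 and 173 CPM in Run GH and Sed GH and 158 and 145 CPM in Run SI and Sed SI of cohort 2. The cohorts did not overlap. The class held 22 to 216 nuclei per library, and the summed inhibitory markers moved with the same split, at 329 to 500 CPM in cohort 1 and 808 to 2024 CPM in cohort 2. Their part in the difference was not tested.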
